A study of Mus musculus with 7 samples.

Results

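The enzymes described here conjugate, hydrolyse, reduce or oxidize foreign and endogenous compounds. They comprise the UDP-glucuronosyltransferases (Ugt), sulfotransferases (Sult), glutathione transferases (Gst and the membrane-bound Mgst), the Nat8 acetyltransferases, the aldo-keto reductases of the Akr1 group, the carboxylesterases (Ces) and the aldehyde dehydrogenases (Aldh). Members were taken by gene symbol, leaving out pseudogenes and the retinal dehydrogenases Aldh1a1, Aldh1a2 and Aldh1a3. Of 19938 genes with a probe set of their own (a transcript cluster, which sums the probes of 1 gene), 103 were members, and 71 of the 103 had a mean level at or above the 40th percentile of all clusters (6.79 on the log2 scale) and were tested. A further 20 genes with matching symbols, among them Ugt1a genes, had only clusters shared with other genes and were not analysed here. RNA came from Paneth cells, which sit at the bottom of the crypts of the small intestine and release antimicrobial granules, sorted by flow cytometry from mice 4 months old. In 1 group the mice ate freely (ad libitum, 3 arrays), and in the other they received 60% of those calories (calorie restricted, 4 arrays), for 4 to 7 weeks. The labels name each array a biological replicate, and they state neither strain and sex nor whether mice were pooled. Levels are deposited log2 values, differences are calorie restricted minus ad libitum ± the standard error (SE) of the limma fit, group means are given ± SD (n = 4 and n = 3), and a gene was called where its p, adjusted by Benjamini-Hochberg over 13409 genes, was below 0.05.

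Conjugation attaches a polar group to a compound so that it can be carried out of the cell. Glucuronosyltransferases use UDP-glucuronic acid, sulfotransferases use an activated sulfate, and glutathione transferases add glutathione, whose conjugates are trimmed and then acetylated to mercapturates. Carboxylesterases cut esters and aldo-keto reductases and aldehyde dehydrogenases act on carbonyl groups, which prepares compounds for conjugation or removes reactive aldehydes. In the small intestine these enzymes are known mainly from the absorptive cells of the villus, where they act on compounds taken up from food.

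Markers of Paneth cells and of goblet cells, the mucus-secreting cells, both gave high signal. Lysozyme (Lyz1) was at 14.31 ± 0.04 (SD, n = 4) in calorie-restricted arrays and 14.31 ± 0.02 (SD, n = 3) in ad libitum arrays. The mean over 14 Paneth markers on the array lay between 12.73 and 13.01 in the calorie-restricted arrays and between 12.89 and 13.02 in the ad libitum arrays. The mean over 7 goblet markers lay between 13.19 and 13.39 and between 13.26 and 13.36, so the markers do not show the sorted cells to be free of goblet cell RNA. The mean over 9 stem cell markers lay between 10.72 and 10.80 and between 10.56 and 11.04. Over 11 enteroendocrine markers it lay between 9.71 and 10.44 and between 9.74 and 10.21. Single markers in these lists were brighter, such as Olfm4 at 13.50 and Chga at 12.78 over all arrays. Freedom from RNA of these cell types is therefore not shown either. Markers of enterocytes, the absorptive cells, were higher under calorie restriction in 10 of 29 tested, with a median difference of 1.01. Their mean level ranged from 11.47 to 11.72 in the calorie-restricted arrays and from 10.36 to 10.91 in the ad libitum arrays, without overlap. In the Paneth, goblet, enteroendocrine, tuft, stem cell and immune or stromal lists 0 genes were called in limma. At an unadjusted p below 0.05 there were 1 higher and 1 lower among 7 goblet genes, 2 higher among 10 enteroendocrine genes and 0 in the other lists. Enterocyte marker level and diet therefore cannot be told apart in these arrays, and in bulk RNA a larger number of cells of a type cannot be told apart from more RNA per cell. These limits hold for every difference below.

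Under calorie restriction 5 of the 71 tested members were higher, and 0 were lower. The 5 were the acetyltransferase genes Nat8f5 (4.19-fold) and Nat8 (2.59-fold), the aldo-keto reductase gene Akr1c19 (4.12-fold), the glutathione transferase gene Gstm6 (2.10-fold) and the sulfotransferase gene Sult6b2. Sult6b2 passed the filter only through its calorie-restricted arrays, so no fold is given for it, and 4 called members remain without it. Ces1g and Ces2b, which were not called, passed the filter in the same way, so the counts and median below describe the tested members and support nothing. Over all genes tested, 0.656% were called higher and 0.00746% lower. By limma's unadjusted p below 0.05, 33 members had positive and 1 had negative differences, where the shares over all genes were 6.89% and 2.41%. The 4 calorie-restricted arrays lay above all 3 ad libitum arrays for 29 tested members, and below them for 2, against 7.14% and 3.03% of all genes tested. The median difference of the tested members was 0.30, beside 0.01 for all genes tested, and 58 of the 71 differences were positive, beside 54.2% of all genes. Differences of at least 1 log2 unit in the higher direction were found in 10 members, beside 0.723% of all genes.

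The number of called members rested on single arrays. Without calorie restricted replicate 1 or 3, limma called 0 members, with 31 at an unadjusted p below 0.05 in the higher direction in each fit. The share of all genes at such a p was not counted there, so the 31 cannot be set against it. Calls over all genes fell away too in these fits, with 12 of 13409 higher (0.0895%) in each. Without calorie restricted replicate 2 or 4 or ad libitum replicate 2, where 23, 58 and 32 of all genes were called higher, Nat8 was the only member called. Without ad libitum replicate 1, 5 members were called, with Aldh1a7 in place of Akr1c19, beside 96 of all genes. Without ad libitum replicate 3, 10 were called beside 97 of all genes: Nat8, Akr1c19, Akr1c13, Akr1b8, Ces1g, Ces2a, Ces2b, Ces2e, Gsta4 and Ugt2a3. The median difference over the members stayed between 0.27 and 0.32 in these 7 fits. Array medians ranged from 7.24 to 7.44.

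**Figure D1:**
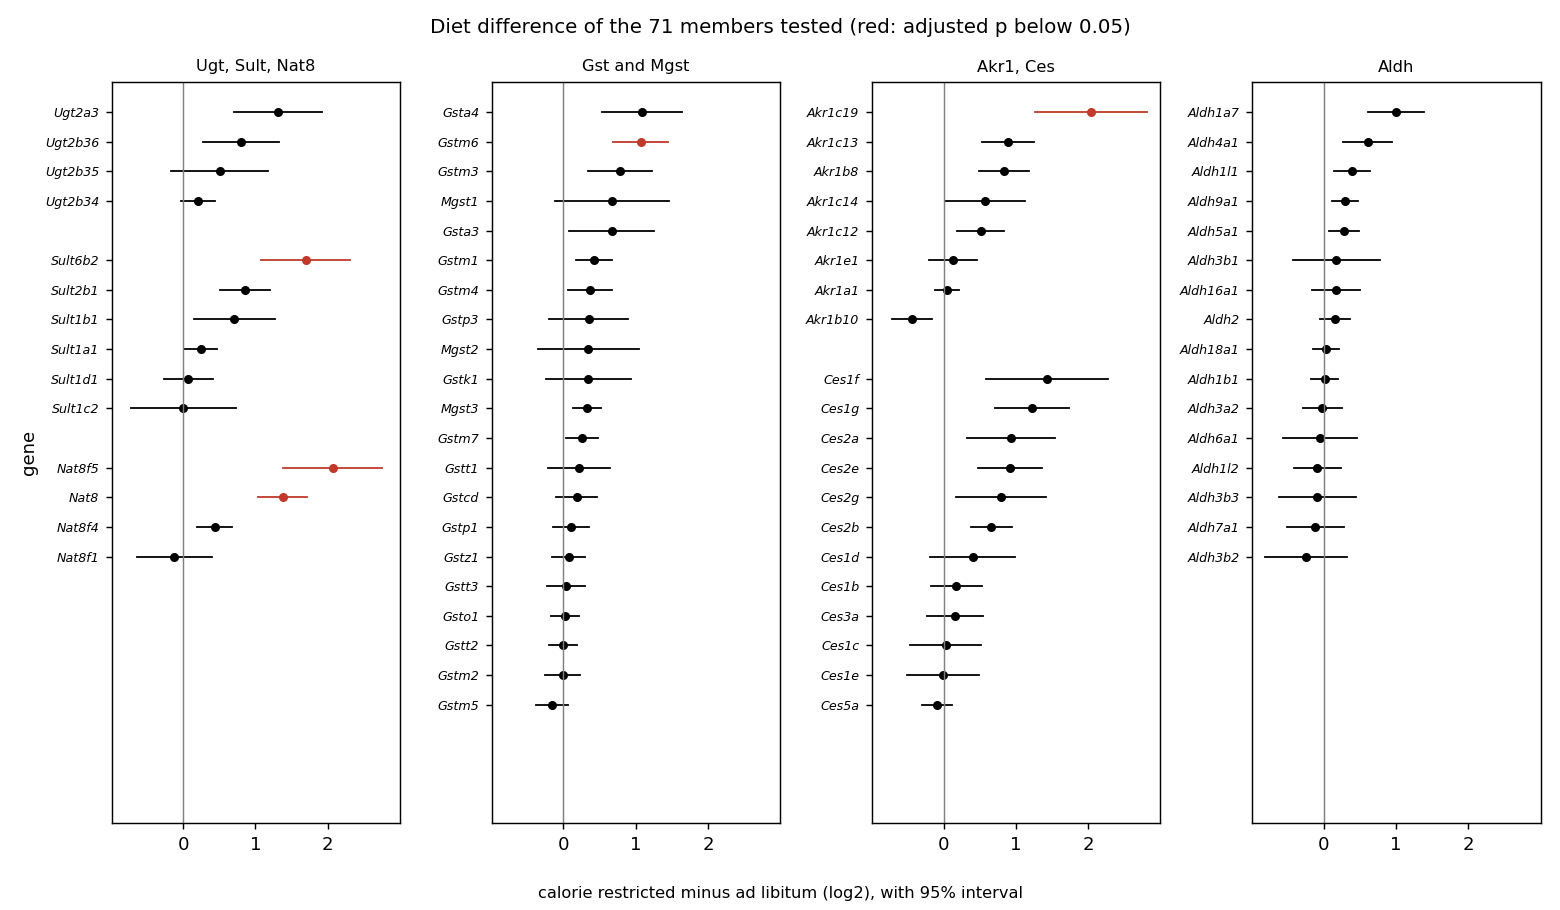
Difference in expression (calorie restricted minus ad libitum, log2, horizontal axis) for each of the 71 tested members (rows, by family), with points for the estimate, lines for the 95% interval of the limma fit, and red for the 5 members with an adjusted p below 0.05. Most points lie to the right of 0 (58 of 71), and the lowest is Akr1b10 at -0.44.

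Sult6b2 is among the 5 called members, with the filter limit given above. The regions just before the transcription starts of these 5 are shown because they were called. Each is the 250 bases before the most upstream start in RefSeq (GRCm38.p6), written 5′ to 3′ on the gene's strand. Capitals mark matches to 6 short motifs, searched on both strands: the antioxidant response element core TGACNNNGC, the nuclear receptor half-site AGGTCA, the HNF1 half-site GTTAAT, the HNF4 core CAAAGT, the xenobiotic response element core TNGCGTG and the CDX2 core TTTATG. The antioxidant core can overlap TGACCT, which is AGGTCA read on the other strand.
Nat8f5 chr6:85820973-85821222, minus strand: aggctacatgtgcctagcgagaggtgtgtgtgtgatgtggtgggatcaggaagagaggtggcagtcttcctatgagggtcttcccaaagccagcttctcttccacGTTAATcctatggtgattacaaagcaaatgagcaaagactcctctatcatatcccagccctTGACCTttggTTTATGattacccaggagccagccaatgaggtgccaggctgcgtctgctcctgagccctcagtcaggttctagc
Nat8 chr6:85836858-85837107, minus strand: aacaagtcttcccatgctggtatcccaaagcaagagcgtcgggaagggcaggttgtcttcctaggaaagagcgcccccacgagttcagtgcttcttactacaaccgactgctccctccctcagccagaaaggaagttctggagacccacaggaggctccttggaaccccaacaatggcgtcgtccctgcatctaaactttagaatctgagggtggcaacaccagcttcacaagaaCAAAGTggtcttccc
Akr1c19 chr13:4233490-4233739, plus strand: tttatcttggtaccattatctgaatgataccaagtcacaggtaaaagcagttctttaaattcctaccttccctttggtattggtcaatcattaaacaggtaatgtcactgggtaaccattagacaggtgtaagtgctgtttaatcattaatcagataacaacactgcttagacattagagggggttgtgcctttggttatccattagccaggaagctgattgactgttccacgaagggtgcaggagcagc
Gstm6 chr3:107953467-107953716, minus strand: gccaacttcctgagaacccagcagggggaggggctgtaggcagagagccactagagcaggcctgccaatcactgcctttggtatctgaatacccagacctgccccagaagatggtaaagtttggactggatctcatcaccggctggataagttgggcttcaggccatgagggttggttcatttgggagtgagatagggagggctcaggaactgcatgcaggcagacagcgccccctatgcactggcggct
Sult6b2 chr6:142804467-142804716, minus strand: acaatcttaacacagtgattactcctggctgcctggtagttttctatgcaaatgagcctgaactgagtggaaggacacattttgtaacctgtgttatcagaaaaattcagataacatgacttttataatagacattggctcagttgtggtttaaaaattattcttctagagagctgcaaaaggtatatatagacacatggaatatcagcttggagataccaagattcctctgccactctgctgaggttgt

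The Nat8f5 window held 3 matches. The HNF1 half-site began 145 bases before the start, TGACCT (the nuclear receptor half-site read on the other strand) began 84 bases before it, and the CDX2 core began 74 bases before it. The Nat8 window held the HNF4 core, beginning 15 bases before the start. No match lay in the windows printed for Akr1c19, Gstm6 and Sult6b2. RefSeq lists 2 windows for Nat8 and 3 for Gstm6. The other Nat8 window held the HNF4 core and the HNF1 half-site, beginning 209 and 27 bases before its start, and 1 of the other Gstm6 windows held the CDX2 core, beginning 36 bases before its start. RefSeq windows were found for 88 of the 103 members, 105 windows in all. The HNF4 core was in 20.0% of the members' windows and in 12.6% of all 32851 windows, the HNF1 half-site in 13.3% and 6.43%, and the CDX2 core in 18.1% and 10.8%. The nuclear receptor half-site was in 18.1% of the members' windows and 14.0% of all windows, the antioxidant core in 6.67% and 10.2%, and the xenobiotic core in 4.76% and 4.10%. These shares are descriptions, were not tested, and do not show binding.

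**Figure D2:**
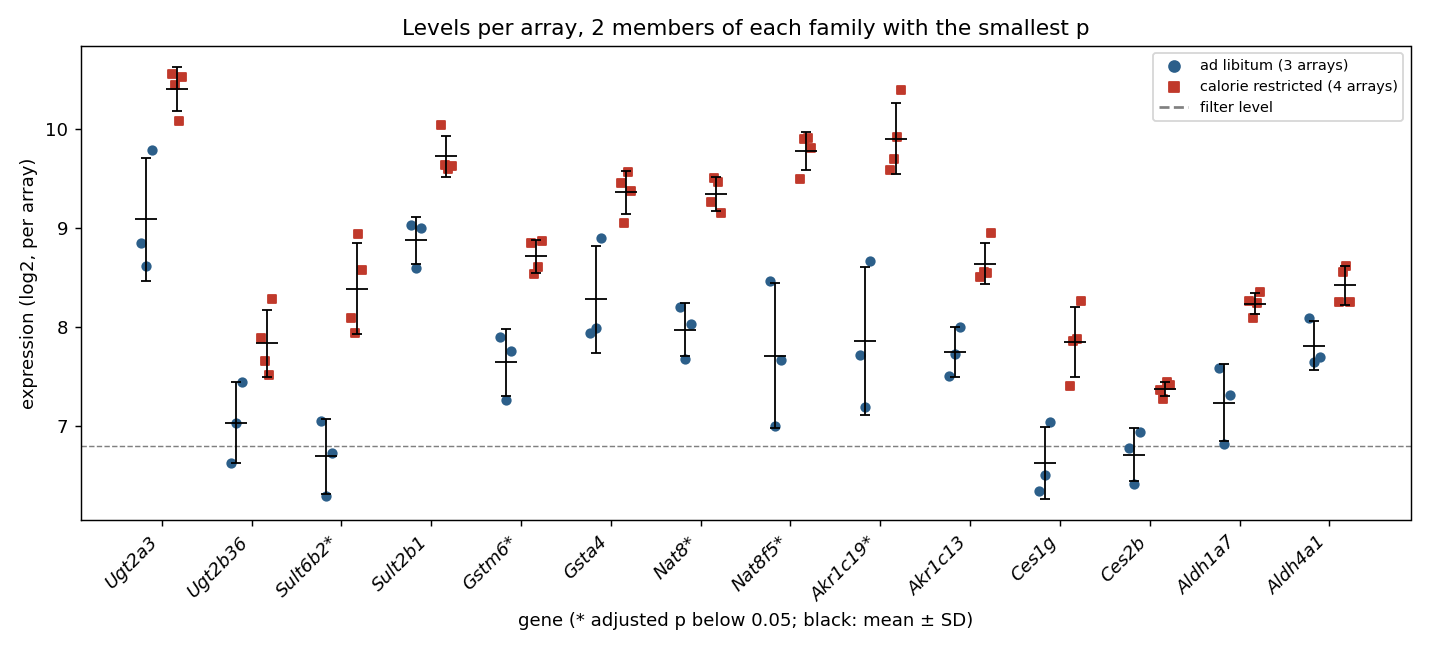
Expression (log2, vertical axis) on each array for the 2 tested members of each family with the smallest p (horizontal axis), with blue circles for the 3 ad libitum arrays, red squares for the 4 calorie-restricted arrays, black bars for the mean ± SD, and a dashed line at the filter level of 6.79. Stars mark the 5 called members. The red squares lie above the blue circles for all 14 genes shown, but these were chosen by smallest p, so this separation supports nothing. Among all 71 tested members it was found in 29, beside 7.14% of all genes tested. Sult6b2, Ces1g and Ces2b passed the filter only through their calorie-restricted arrays.

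Glucuronosyltransferases join glucuronic acid to steroids, bile acids, phenols and drugs. Of 10 members, 4 were tested, 0 were called in limma, and 2 had an unadjusted p below 0.05, both in the higher direction (6.89% over all genes tested). Ugt2a3 was at 10.56, 10.45, 10.08 and 10.52 in calorie restricted replicates 1 to 4 and at 8.85, 8.62 and 9.79 in ad libitum replicates 1 to 3. Its groups did not overlap, although ad libitum replicate 3 lay close to the lowest calorie-restricted array. Its difference was 1.31 ± 0.26 (limma, adjusted p = 0.0922). Ugt2b36 was at 7.88, 7.65, 7.51 and 8.28 under restriction and at 6.62, 7.02 and 7.44 on free feeding, a difference of 0.80 ± 0.23 (adjusted p = 0.257). For Ugt2b34 the difference was 0.21 ± 0.10 (95% interval -0.03 to 0.44), and for Ugt2b35 it was 0.51 ± 0.29, with groups that overlapped in both genes.

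Sulfotransferases move a sulfate group onto hydroxyl groups of hormones, bile acids and phenols. Of 16 members 6 were tested, and 1, Sult6b2, was called. Sult6b2 was at 8.08, 7.94, 8.94 and 8.57 in the calorie-restricted arrays and at 7.05, 6.29 and 6.73 in the ad libitum arrays. Every calorie-restricted array lay above every ad libitum array, and the difference was 1.69 ± 0.27 (adjusted p = 0.0411). Its ad libitum mean of 6.69 was below the filter level, so it was tested only through its calorie-restricted arrays. Its call and separation are therefore only described and support nothing, and the size of its difference is uncertain. Ad libitum means were also below that level for Ces1g (6.63) and Ces2b (6.71). Sult2b1, which sulfates cholesterol, was at 10.03, 9.64, 9.60 and 9.63 against 9.03, 8.59 and 8.99. Its groups did not overlap, and its difference of 0.85 ± 0.15 missed the threshold (adjusted p = 0.0570). Sult1b1, known for sulfating thyroid hormones and phenols, had a difference of 0.71 ± 0.25 (adjusted p = 0.389), with ad libitum replicate 3 at 9.89 above the lowest calorie-restricted array at 9.74. The phenol sulfotransferase Sult1a1 had a difference of 0.24 ± 0.10. Sult1d1 had group means of 11.48 ± 0.20 and 11.41 ± 0.26, and its 95% interval ran from -0.26 to 0.41. Sult1c2 was at 8.87 in both groups, with a wide interval from -0.72 to 0.73.

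Glutathione transferases were the largest family, with 23 members and 21 tested. Gstm6 was the only one called, and the median difference was 0.33. In limma, 8 members had an unadjusted p below 0.05 in the higher direction (6.89% over all genes tested). Gstm6, a mu-class enzyme, was at 8.84, 8.54, 8.60 and 8.86 in the calorie-restricted arrays and at 7.90, 7.26 and 7.76 in the ad libitum arrays. The groups did not overlap, and the gene rose by 1.07 ± 0.17 (adjusted p = 0.0411). Gsta4, which conjugates hydroxynonenal, a product of lipid peroxidation, was at 9.46, 9.05, 9.56 and 9.37 against 7.94, 7.99 and 8.90. Here ad libitum replicate 3 lay close to the calorie-restricted arrays, and the difference was 1.08 ± 0.24 (adjusted p = 0.128). Without that array it was 1.39 (adjusted p = 0.0159), and without ad libitum replicate 2 it was 0.94 (adjusted p = 0.548). Gstm3 was at 12.12, 11.71, 11.81 and 12.29 against 11.30, 10.81 and 11.49, a difference of 0.78 ± 0.19 (adjusted p = 0.177). A second cluster of Gstm3 gave 0.83. Other members whose calorie-restricted arrays all lay above the ad libitum arrays were Gsta3, Gstm1, Gstm4, Gstm7 and the microsomal Mgst3, with differences from 0.26 to 0.67, and 0 of these 5 were called (they are 5 of the 8 with an unadjusted p below 0.05).

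The remaining glutathione transferases showed smaller differences or overlapped between the diets. Gstp1, the pi-class enzyme, was at 12.19, 12.05, 11.87 and 12.32 under restriction and at 11.91, 12.03 and 12.06 on free feeding, a difference of 0.11 ± 0.11. Gsto1, which can reduce dehydroascorbate, had a difference of 0.03 ± 0.08. Gstz1, which isomerizes maleylacetoacetate in tyrosine breakdown, had 0.07 ± 0.10. The theta-class members Gstt1, Gstt2 and Gstt3 lay between -0.01 and 0.22, and Gstcd, Gstk1, Gstp3 and Mgst2 between 0.18 and 0.35, all with overlap. Gstm5 was at 10.27, 10.28, 10.28 and 10.00 against 10.36, 10.41 and 10.32, with all calorie-restricted arrays below the ad libitum arrays and a difference of -0.15 ± 0.10 (adjusted p = 0.718). Mgst1 spread widely within each diet, with an SD of 0.47 over calorie-restricted arrays and of 0.69 over ad libitum arrays. Members of this family, and of the Ugt2b, Akr1c and Ces groups, include close relatives, and probes may bind more than 1 of them, so which relative a value belongs to is uncertain.

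The Nat8 genes encode membrane-bound acetyltransferases. Human NAT8 acetylates cysteine conjugates, the last step of mercapturate formation. Of 6 members 4 were tested and 2 were called. Nat8f5 was at 9.49, 9.90, 9.91 and 9.80 in the calorie-restricted arrays and at 8.46, 7.00 and 7.66 in the ad libitum arrays. The calorie-restricted arrays lay close together (SD 0.20), while the ad libitum arrays spread widely (SD 0.73), and the groups did not overlap. Nat8f5 rose by 2.07 ± 0.30 (adjusted p = 0.0347). Nat8 was at 9.26, 9.51, 9.47 and 9.14 against 8.20, 7.67 and 8.03, and rose by 1.38 ± 0.15 (adjusted p = 0.0107), the smallest adjusted p among the members. It was also the member called under the most of the 16 alternatives (13). Nat8f4 was at 8.43, 8.47, 8.31 and 8.42 against 7.79, 7.97 and 8.16, without overlap, and its difference of 0.43 ± 0.11 missed the threshold (adjusted p = 0.180). Nat8f1 was at 7.66 ± 0.30 against 7.78 ± 0.43, with a 95% interval of the difference from -0.64 to 0.40. Nat8f2 was below the filter at 6.83, 6.86, 7.27 and 6.57 against 6.38, 5.99 and 6.30. Nat8l, which makes acetylaspartate in neurons, was also below it.

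Aldo-keto reductases of the Akr1 group reduce aldehydes and ketones, steroids and prostaglandins among them. Of 14 members 8 were tested and 1 was called. Akr1c19 was at 9.59, 9.69, 9.92 and 10.39 in the calorie-restricted arrays and at 7.72, 7.18 and 8.67 in the ad libitum arrays. Its ad libitum SD of 0.75 was the widest of the 71 tested members, and the groups still did not overlap. Akr1c19 rose by 2.04 ± 0.34 (adjusted p = 0.0439). Akr1c13 was at 8.50, 8.55, 8.54 and 8.94 against 7.50, 7.73 and 8.0, a difference of 0.89 ± 0.15 (adjusted p = 0.0546). Akr1b8, a reductase of aliphatic and aromatic aldehydes, was at 7.58, 7.67, 7.84 and 7.87 against 6.59, 6.92 and 7.22, a difference of 0.83 ± 0.15 (adjusted p = 0.0605). Both separated the diets fully, and both were called after quantile normalization and after median centring. Akr1c12 (0.51 ± 0.14) also separated the diets, while Akr1c14, a steroid dehydrogenase in mice, did not (0.58 ± 0.24).

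Akr1b10 went the other way. It was at 9.83, 9.67, 9.66 and 9.48 in the calorie-restricted arrays and at 10.00, 10.32 and 9.97 in the ad libitum arrays, with all calorie-restricted arrays lower. The difference was -0.44 ± 0.12 (adjusted p = 0.234). It was the only tested member with a negative difference at an unadjusted p below 0.05, and its neighbour Akr1b8 had a positive difference. Its difference stayed negative under the 16 alternatives, from -0.53 to -0.33. Akr1a1, an aldehyde reductase of most tissues, had group means of 12.85 ± 0.07 and 12.80 ± 0.09, with a difference of 0.05 whose 95% interval ran from -0.12 to 0.21. Akr1e1 had a difference of 0.13 ± 0.15.

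Carboxylesterases hydrolyse ester drugs, acylglycerols and retinyl and cholesteryl esters. Of 16 members 12 were tested, 0 were called in limma, 6 had an unadjusted p below 0.05, all in the higher direction, and the median difference was 0.53. Over all genes tested, 6.89% had such a p in that direction. Ces1g and Ces2b are among the 6 and passed the filter only through their calorie-restricted arrays. The count, the median and the values of these 2 genes are therefore only described and support nothing. Ces1g, a lipid ester hydrolase, was at 7.40, 7.85, 7.88 and 8.26 against 6.34, 6.50 and 7.04. The diets were separated, and the difference of 1.22 ± 0.22 missed the threshold (adjusted p = 0.0612). Ces2b was at 7.36, 7.27, 7.44 and 7.41 against 6.77, 6.41 and 6.94, a difference of 0.66 ± 0.12 (adjusted p = 0.0677). Ces2e was at 11.71, 11.45, 11.34 and 11.68 against 10.48, 10.30 and 11.12, a difference of 0.92 ± 0.19 (adjusted p = 0.108). In Ces2e, ad libitum replicate 3 was the nearest to the calorie-restricted arrays, and without it the difference was 1.16 (adjusted p = 0.0161). Without ad libitum replicate 2 the difference in Ces2e was 0.75 (adjusted p = 0.428). Ces1f had the largest difference of the family, 1.43 ± 0.37 (adjusted p = 0.201), with calorie restricted replicate 4 at 10.37 and the other 3 between 9.10 and 9.27. Ces2a (0.93 ± 0.27) also separated the diets, and Ces2g (0.79 ± 0.27) did not. Ces1c was at 11.07 ± 0.27 against 11.04 ± 0.43 (95% interval -0.46 to 0.52). Ces1b, Ces1d, Ces1e, Ces3a and Ces5a lay between -0.09 and 0.40, with overlap.

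Aldehyde dehydrogenases oxidize aldehydes from amino acid, lipid and folate metabolism. Of 18 members 16 were tested, 0 were called in limma, and 5 had an unadjusted p below 0.05, all in the higher direction (6.89% over all genes tested). The median difference was 0.09, the lowest of the 7 families. Aldh1a7, a rodent relative of Aldh1a1, was at 8.26, 8.09, 8.24 and 8.35 in the calorie-restricted arrays and at 7.58, 6.81 and 7.31 in the ad libitum arrays. The groups did not overlap, and the difference of 1.00 ± 0.17 missed the threshold narrowly (adjusted p = 0.0512). Aldh4a1, which breaks down proline, was at 8.25, 8.55, 8.62 and 8.25 against 8.09, 7.65 and 7.69 (0.61 ± 0.15, adjusted p = 0.177). Aldh9a1, which acts in carnitine synthesis, was at 12.17, 11.97, 11.99 and 12.04 against 11.82, 11.66 and 11.76 (0.30 ± 0.08, adjusted p = 0.206). The folate enzyme Aldh1l1 (0.39 ± 0.11) and the succinate semialdehyde enzyme Aldh5a1 (0.28 ± 0.09) had groups that did not overlap either.

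The 11 other aldehyde dehydrogenases tested overlapped between the diets. Aldh18a1, which makes the precursor of proline, had group means of 12.38 ± 0.10 and 12.34 ± 0.06 (SD), with a 95% interval from -0.14 to 0.21. Aldh1b1, a mitochondrial enzyme, was at 11.66 ± 0.01 against 11.65 ± 0.14, and Aldh2, the mitochondrial enzyme of ethanol breakdown, at 11.01 ± 0.10 against 10.86 ± 0.12. The fatty aldehyde enzyme Aldh3a2 had a difference of -0.02 ± 0.12. Aldh3b1, Aldh3b2, Aldh3b3, Aldh6a1, Aldh7a1, Aldh1l2 and Aldh16a1 had differences between -0.24 and 0.17. Over the 16 tested aldehyde dehydrogenases, calorie restricted replicate 4 was the lowest of its group in 7 (43.8%). In 10 (62.5%) ad libitum replicate 1 was the highest of its group. The shares over all genes tested were 36.8% and 47.7%.

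Many members are neighbours on their chromosome, and neighbours differed in how far they separated the diets. At the Nat8 locus, Nat8f5 and Nat8 are adjacent members with differences of 2.07 and 1.38, followed by Nat8f2 (0.66, below the filter), Nat8f4 (0.43) and Nat8f1 (-0.12). The differences decreased in this order, but only over the members measured. Nat8f3, Nat8f6 and Nat8f7 had only clusters shared with other genes and were not analysed. At the Akr1c locus, Akr1c19 (2.04) lies between Akr1c13 (0.89) and Akr1c12 (0.51), and Akr1c18, Akr1c6, Akr1c20 and Akr1c21 were below the filter. At the Gstm locus, Gstm6 (1.07) and Gstm3 (0.78) are adjacent members, with Gstm7 (0.26) on one side and Gstm2 (-0.01) on the other. Positions are those of the genes and not of the clusters, and the second Gstm3 cluster gave 0.83. At the Ces1 locus, Ces1f (1.43) and Ces1g (1.22) are adjacent members, between Ces1e (-0.01) and Ces5a (-0.09). No test of position was made, and shared probes between neighbours may add to likeness.

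**Figure D3:**
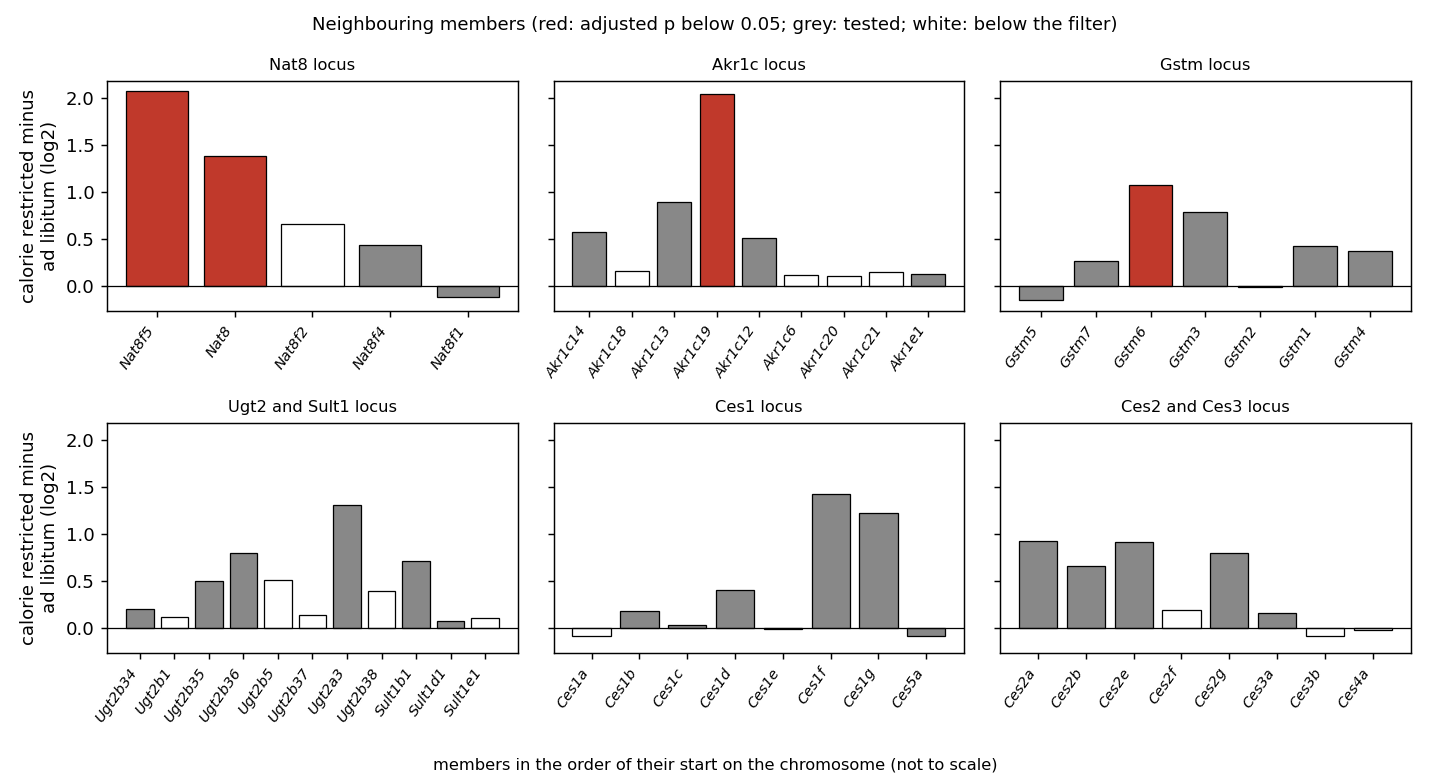
Difference in expression (calorie restricted minus ad libitum, log2, vertical axis) of neighbouring members at 6 loci, in the order of their starts (horizontal axis, not to scale), with red bars for called members, grey for other tested members and white for members below the filter. The highest bars are Nat8f5 at 2.07, next to Nat8, and Akr1c19 at 2.04.

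Genes that supply, regulate or follow conjugation were described from a list of 47, of which 40 were tested. Of the 40, 2 were higher and 0 lower in limma, with 17 and 0 at an unadjusted p below 0.05, and the median difference was 0.23. Over all genes tested, 0.656% and 0.00746% were called and 6.89% and 2.41% had such a p. Ephx2, the soluble epoxide hydrolase, was at 10.26, 10.26, 10.25 and 9.92 against 9.17, 9.19 and 9.37, and rose by 0.93 ± 0.11 (adjusted p = 0.0157). Abcb1a, the P-glycoprotein exporter, was at 11.61, 11.67, 11.86 and 11.81 against 11.22, 10.85 and 10.98, and rose by 0.72 ± 0.11 (adjusted p = 0.0365). Both genes had groups that did not overlap. Papss2, which makes the activated sulfate that sulfotransferases use, was between 11.65 and 12.11 in the calorie-restricted arrays and at 10.85, 9.96 and 10.91 in the ad libitum arrays, a difference of 1.33 ± 0.23 (adjusted p = 0.0556). Dpep1, a dipeptidase that trims glutathione conjugates, had a difference of 1.26 ± 0.25 (adjusted p = 0.0823), and the carbonyl reductase Cbr1 had 0.46 ± 0.09 (adjusted p = 0.0677). Ugdh, which makes UDP-glucuronic acid, had 0.55 ± 0.17, and the conjugate exporter Abcc2 had 0.73 ± 0.19, with groups that did not overlap. Of the 40 differences 33 were positive and 7 negative. The lowest was that of Ephx1, at -0.40 ± 0.24, with overlap.

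The glutathione synthesis genes Gclc, Gclm and Gss had differences of 0.19 ± 0.09, 0.20 ± 0.15 and 0.18 ± 0.13, and 0 of the 3 had an unadjusted p below 0.05. The oxidative stress regulator Nfe2l2 (NRF2) was at 11.84 ± 0.06 against 11.79 ± 0.07, and its inhibitor Keap1 had a difference of -0.08 ± 0.08. Nqo1, a known NRF2 target, had 0.84 ± 0.29 (adjusted p = 0.383), with overlap. The xenobiotic receptors Nr1i3 (CAR) and Nr1i2 (PXR) had 0.74 ± 0.23 and 0.40 ± 0.20, and neither was called. The groups of Nr1i3 did not overlap (adjusted p = 0.302), nor did those of the fatty acid receptor gene Ppara, at 0.51 ± 0.16 (adjusted p = 0.315), while those of Nr1i2 overlapped. Hnf4a, an intestinal and hepatic transcription factor, was at 12.77 ± 0.13 against 12.69 ± 0.09.

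Of the 32 members below the filter, 12 had a mean level under 5. They included 10 of 16 sulfotransferases, 6 of 10 glucuronosyltransferases and 6 of 14 Akr1 members. Known liver or steroid enzymes were among them, such as the estrogen sulfotransferase Sult1e1 at a mean of 3.94, Akr1d1, which acts in bile acid synthesis, at 5.64, and the progesterone-inactivating Akr1c18 at 5.35. Their differences ran from -0.16 to 0.66, with a median of 0.02, and 0 were called in a limma fit without the filter. In that fit 4 had an unadjusted p below 0.05, and the share of all genes at such a p was not counted. Those 4 were Nat8f2 (0.66), Ugt2b5 (0.52), Ugt2b38 (0.40) and Akr1c18 (0.16). At these levels signal was not shown to exceed background.

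Which arrays stood highest and lowest is described here by family, and no difference between families was tested. Over the 71 tested members, calorie restricted replicate 4 was the highest of its group in 42.2% and ad libitum replicate 3 the highest of its group in 45.1%, beside 32.6% and 25.5% of all genes tested. Among glutathione transferases, calorie restricted replicate 4 was highest in 14 of 21, and among carboxylesterases in 7 of 12. That array was the highest in 0 of 6 sulfotransferases and 0 of 4 Nat8 members. With so few genes, measured on the same arrays, these counts cannot show that families differ. Ad libitum replicate 2 was the lowest of its group for 3 of 4 Nat8 members and 4 of 6 sulfotransferases. It was so for 3 of 21 glutathione transferases and for 24.7% of all genes tested. It also had the lowest enterocyte marker mean (10.36), beside 10.87 and 10.91 in ad libitum replicates 1 and 3. Over the calorie-restricted arrays, replicate 4 had the lowest enterocyte marker mean (11.47). It had the highest mean of the tested glucuronosyltransferases (10.21), glutathione transferases (10.20), Akr1 members (9.78) and carboxylesterases (9.06). It had the lowest mean of the tested sulfotransferases (9.09), Nat8 members (8.64) and aldehyde dehydrogenases (10.07). Whether the members follow the enterocyte markers was not tested.

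**Figure D4:**
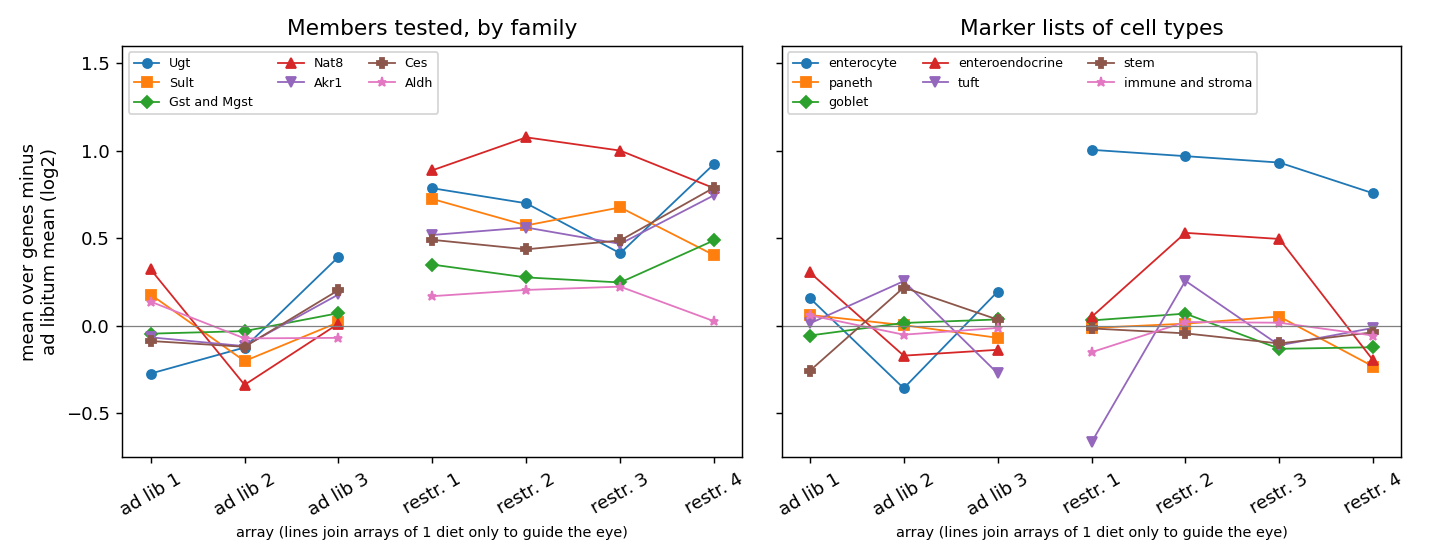
Mean level over genes on each array (horizontal axis) minus the mean of the 3 ad libitum arrays (log2, vertical axis), for the tested members of each family (left) and for marker lists of cell types (right), with lines joining arrays of 1 diet only as a guide. The enterocyte list lies higher in all 4 calorie-restricted arrays than in the 3 ad libitum arrays, and the Nat8 genes lie above the other families in 3 of the 4 calorie-restricted arrays.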

How the data were processed

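Total RNA of sorted Paneth cells was hybridised to 7 Affymetrix arrays. The authors deposited log2 expression per transcript cluster. The submitters' processing notes name Affymetrix Expression Console and state no algorithm, so the scale was inferred from the range of the values. The platform annotation gave 1 symbol to 21789 of 35556 clusters. The brightest one-symbol cluster stood for each gene. Genes with a mean at or above the 40th percentile of cluster means (13409) were fitted with limma (version 3.58.1, R 4.3.3), lmFit and eBayes with an intensity trend, and p-values were adjusted over all of them by Benjamini-Hochberg. Tested on simulated arrays of 13409 genes, the same model called 99 of 100 shifts of 2 (log2) and 84 of 100 shifts of 1, with 11 false calls in all. Noise was drawn for each gene separately, without deviations shared by the genes of an array. The calls in the real arrays rested on single arrays, so these counts do not describe the fit of the real data. The number of arrays limits the precision. Promoter windows came from RefSeq (GRCm38.p6). Named members were those called, the 3 with the smallest p and the 2 with the highest mean in each family; other members are named with values or given by counts and ranges. From the list of 47, those called and the 5 with the smallest p were named by rule. Ugdh, Abcc2, Nqo1, Ppara, Ephx1, the glutathione synthesis genes and the regulators were added after their values were seen. Members and lists were chosen with earlier results of these data known.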

Additional observations from a re-analysis of the deposited data

Results flagged for a closer look

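Over the 111 tested genes of the families and of the supply, regulator and export list, 16 had 1 calorie-restricted array set apart from the other 3 by more than Dixon's 95% critical value for 4 samples (0.829). Chance flags about 1 in 20 independent groups, but these genes share the same 4 arrays, so that rate cannot be set against the 16. Flags were not counted over all genes. Calorie restricted replicate 4 was the array set apart in 14 of the 16. Over all genes tested, replicate 4 was the highest of its group in 32.6% and the lowest in 36.8%. It was the highest for Gstm1 at 11.27, Ces1f at 10.37, Akr1c13 at 8.94 and Gstp3 at 8.24, and the lowest for Ces1c at 10.67, Aldh7a1 at 10.26, Gstm5 at 10.0, Aldh6a1 at 9.99 and Nat8f1 at 7.21. Among genes of the list it was the highest for Hnf4a at 12.97, Ugdh at 11.23 and Abcc3 at 10.27, and the lowest for Ephx2 at 9.92 and Abcc1 at 9.84. In Sult2b1 replicate 1 was the highest at 10.03, and in Akr1e1 replicate 3 was the lowest at 8.79. None of these 16 genes but Ephx2 was called.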

How the results depend on the processing

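Each result was recomputed under 16 alternatives. The number of members higher was 5 after quantile normalization, with the mean of all clusters, without the trend and with robust estimation, 6 without the filter and 4 with the 60th percentile filter. It was 9 after median centring, 29 with array weights and between 0 and 10 without single arrays. Over all genes, 110 were higher after median centring, 53 after quantile normalization and 963 with array weights, beside 88 as reported. The replicate block called 0 members and 0 of all 13409 genes in limma, and 29 members had an unadjusted p below 0.05 in the higher direction. The share of all genes at such a p was not counted in the block fit, so the 29 cannot be set against it. The number lower was 1 (Akr1b10) with array weights and 0 otherwise. Median centring gave a median difference of 0.38 and shifted that of all genes from 0.01 to 0.10. It was 0.16 without the filter, which added the low members, and it lay between 0.27 and 0.32 without single arrays. After quantile normalization Nat8f5 (difference 2.09, adjusted p = 0.0545), Akr1c19 (2.07, 0.0587) and Gstm6 (1.11, 0.0587) missed the threshold with differences close to those reported, Nat8 and Sult6b2 passed, and Akr1b8, Akr1c13 and Ces1g passed in addition. Same-numbered arrays had correlations of deviations from the diet mean of -0.126, -0.265 and -0.55, and the block fit used 6 arrays. For arrays with different numbers these correlations ran from -0.731 to 0.641. Deviations within so few arrays are tied to each other, so these values cannot decide whether replicate numbers pair the arrays. Differences near 0 changed sign: Ces1c was -0.014 after quantile normalization, and without single arrays Ces1c ran from -0.16 to 0.26, Sult1d1 from -0.056 to 0.20 and Aldh18a1 from -0.0061 to 0.067. The 5 called members kept positive differences under the alternatives that measured them. The cause of changes in calls was not tested.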
